A study of Mus musculus with 2 samples.

Results

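Glucagon-producing α cells were examined here in pancreatic islets of mice with and without the gene for ghrelin. The α barcodes were chosen by transcript share: a droplet barcode was a member when glucagon transcripts (Gcg) made up at least 10% of its UMIs (unique molecular identifiers, each counting 1 captured transcript) and insulin (Ins1 plus Ins2), somatostatin (Sst) and pancreatic polypeptide (Ppy) each made up under 5%. Barcodes under 500 genes or over 10% mitochondrial UMIs were dropped, and of the 13446 kept 2169 were members. The WT library held 912 of 7100 kept barcodes (12.8%, exact Clopper-Pearson 95% interval 12.1 to 13.6) and the GKO library 1257 of 6346 (19.8%, 18.8 to 20.8). These are shares of sorted live barcodes, not of islet cells in the tissue, and the intervals here and below cover counting error alone. Barcodes of β cells, chosen by insulin share, numbered 2027 in WT and 768 in GKO. Among the hormone-rich barcodes (α, β, δ and γ), members made up 19.8% in WT and 36.9% in GKO. The part of the β count in the α shares was not tested.

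The series compared male WT mice with homozygous ghrelin-knockout (GKO) littermates on a C57BL/6N background, 8 weeks old and fed standard chow. Islets of 4 mice per genotype were pooled, dispersed, sorted for live single cells and made into 1 droplet library of transcript 3′ ends per genotype. Each genotype was therefore 1 sample, with no replicate, and no test between genotypes was possible. With 1 pool per genotype, a difference between the libraries cannot be told apart from one between these pools of animals or preparations. The deletion was present in all tissues, so an effect within α cells cannot be told apart from one that arose elsewhere.

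α cells release glucagon when blood glucose is low and when amino acids or adrenergic signals reach them, and glucagon makes the liver release glucose. Proglucagon is cut by prohormone convertase PC2 (Pcsk2) to glucagon in α cells, whereas PC1/3 (Pcsk1) yields GLP-1 in the gut. The transcription factors Pax6, Isl1, Foxa2, Irx1 and Irx2 are known from α cells, and several of these factors bind the glucagon promoter. Ghrelin acts on the receptor Ghsr, which in the islet is best known from δ cells.

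The glucagon promoter is shown because this gene chose the barcodes and because the factors that bind it were measured. The sequence is RefSeq's, of build GRCm38.p6, the 250 bases before the start site of Gcg on the minus strand at chr2:62483654-62483903. Capitals mark matches on either strand to 3 motifs, some of which overlap. The TATA box was searched as TATAAA. The core that homeodomain factors prefer was searched as TAAT. The forkhead motif was searched as TNTTTAC, in which N is any base.
Gcg: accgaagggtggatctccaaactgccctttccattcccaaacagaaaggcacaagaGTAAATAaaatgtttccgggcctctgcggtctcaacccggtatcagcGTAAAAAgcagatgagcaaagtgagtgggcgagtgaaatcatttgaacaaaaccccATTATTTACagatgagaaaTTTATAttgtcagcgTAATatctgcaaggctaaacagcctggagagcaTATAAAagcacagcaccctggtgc
On the letters of this window, the TATA box motif stood on the gene's strand at -24 to -19 from the start site and once more on the other strand. TAAT was found in 2 places and TNTTTAC in 3, of which the match at -89 to -83 overlapped the TAAT match at -91 to -88. Of 32851 promoter windows of this length, searched on both strands, 12.4% held TATAAA, 54.9% TAAT and 10.9% TNTTTAC. E boxes (CANNTG) had 3 matches, and 66.2% of all windows held one. No match to TGACG, the cAMP response half-site, was in this window. A match describes letters, not binding.

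The cut at 10% fell in a sparse part of the Gcg distribution. Among barcodes that met the other limits, 24 WT and 23 GKO barcodes had a Gcg share of 7.5 to 10%, just outside, while 39 and 37 lay between 5 and 10%. The median Gcg share of members was 26.1% in WT and 27.1% in GKO, with ranges of 10.1 to 45.6% and 10.1 to 55.5%. In addition, 192 WT and 176 GKO barcodes with at least 10% Gcg were left out because another hormone reached 5%, and this was Ppy in 109 and 89 of them, Sst in 67 and 75 and insulin in 19 and 13. A doublet caller marked 39.6% and 43.2% of these hormone-mixed barcodes, against 2.52% and 4.53% of members.

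**Figure D1:**
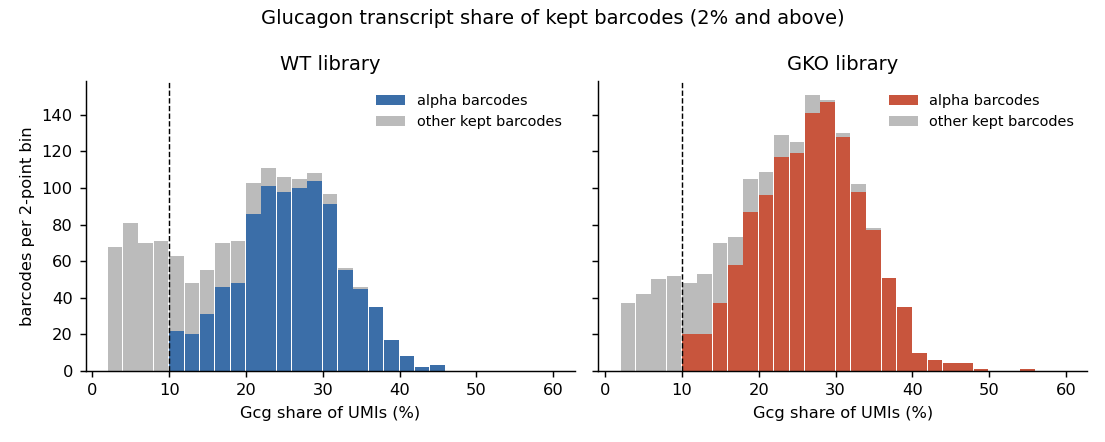
Kept barcodes by Gcg share of UMIs (x axis, percent) in bins of 2 points, for shares of 2% and above, in the WT (left) and GKO (right) libraries; the colored bars are α barcodes, the gray bars stacked on them other kept barcodes, and the dashed line marks 10%. Members peak between 20 and 32% in both libraries and thin out toward the line.

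Members were of similar depth in the libraries. The median was 11814.5 UMIs and 2938.5 genes per α barcode in WT and 11757 UMIs and 2956 genes in GKO, with medians of 4.35% and 4.78% mitochondrial UMIs. Summed, the WT members held 11846452 UMIs and the GKO members 15959953. The libraries shared 18 barcode sequences, 3 of them α in either library and 0 in both. The deleted gene matched the labels: Ghrl had 63 UMIs in 60 WT members (6.58%; 4.19% of endothelial barcodes) and 1 UMI in GKO members. WT Ghrl was thus at 5.32 counts per 1000000 UMIs (CPM) in α and 4.68 in endothelial barcodes.

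The barcodes carried the markers of α cells. Gcg itself took 264763 CPM in WT and 273489 CPM in GKO. Ttr, which encodes the thyroid hormone and retinol carrier transthyretin, stood at 30875 and 29943 CPM, and Irx2 at 95.6 and 110 CPM. After each barcode was thinned to 2000 UMIs, Irx2 had a UMI in 17.9% of WT and 20.2% of GKO members, against 0.51% and 0% of endothelial barcodes. Without thinning the shares were 64.5% and 68.1% at a median of 11814.5 and 11757 UMIs, against 1.17% and 0.22% of endothelial barcodes at 7190.5 and 7378 UMIs. Gc, the vitamin D binding protein, did not set α apart from γ in these data, at 187 and 172 CPM in α and 205 and 201 CPM in γ barcodes.

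The 10 markers of β cells differed in how far they stood above endothelial barcodes, taken as the level of free RNA. Mafa had 0 UMIs in WT members, which allows up to 3 counts, and 1 in GKO members. Ucn3 stood at 1.94 CPM in both libraries (2.43 and 1.85 CPM in endothelial barcodes) and Slc2a2 at 3.55 and 2.07 CPM (2.43 and 2.11 CPM), so these 3 were near that level. Slc30a8, the zinc carrier of secretory granules, was well above it, at 723 and 767 CPM against 12.2 and 4.75 CPM. G6pc2 (17.3 and 16.4 CPM against 7.30 and 3.96 CPM), Nkx6-1 (13.9 and 14.7 CPM against 0.56 and 0.26 CPM) and Pdx1 (5.99 and 5.89 CPM against 1.31 and 1.32 CPM) were above it at low levels. Insulin (Ins1 plus Ins2) made 6138 CPM in WT and 4685 CPM in GKO members. Ins2 alone was 4478 and 3460 CPM in α barcodes and 4206 and 3443 CPM in endothelial barcodes, which should lack it, so the insulin reads of members were at background. Sst was at 2118 and 1869 CPM in α and at 2558 and 578 CPM in endothelial barcodes. If all insulin reads were free RNA of the library's composition, such RNA made 1.81% of WT and 2.49% of GKO α UMIs.

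Pyy and Ppy were above that background. Pyy, a peptide of the neuropeptide Y family, took 14897 CPM in WT and 13958 CPM in GKO members against 1172 and 387 CPM in endothelial barcodes. Ppy took 6322 and 4942 CPM against 1199 and 619 CPM, although the rule had kept out barcodes with 5% or more. Both were unevenly spread: with barcodes thinned to 5000 UMIs, the 10% of members with most Pyy UMIs held 42.8% and 46.2% of them. Iapp, the amyloid peptide released with insulin, was 2281 and 1895 CPM, again above the endothelial 777 and 390 CPM. For Ppy, 153 WT and 148 GKO members had between 1 and 5% of UMIs.

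A short list of genes set α barcodes apart from β, δ and γ barcodes in both libraries. Classes were chosen by hormone share, so these ratios describe the classes and carry no test. Of 2078 genes with at least 50 CPM in α barcodes of both libraries, 56 (2.69%) were at least 2-fold above the highest of the other 3 classes in both, 20 at least 4-fold and 5 at least 10-fold. Gcg led at 81.1-fold in WT and 97.9-fold in GKO, which the rule fixed. Irx1 was 16.9-fold and 21.3-fold above the highest other class, Wnk3, a kinase that regulates cation-chloride cotransport, 14.5-fold and 12.4-fold, and Ttr 11.5-fold and 11.6-fold.

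Slc7a2, a carrier of arginine and other cationic amino acids, was at 501 and 515 CPM, 7.46-fold and 8.74-fold above the highest other class. Slc38a5, a glutamine carrier, was at 148 and 114 CPM, 7.62-fold and 6.82-fold. Higd1a, a mitochondrial protein of the hypoxia response, was at 247 and 266 CPM, with at most 29.3 CPM in β, δ and γ barcodes. Cryba2, a crystallin found in endocrine cells, was at 300 and 340 CPM, 5.67-fold and 6.07-fold. Nxph1, Upk3a, Irx2, Tmsb15b2, Vwde and Ptprd were also among the first 15. Tmsb15b2 has near-identical neighbors (Tmsb15l, Tmsb15b1), so its count is uncertain.

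**Figure D2:**
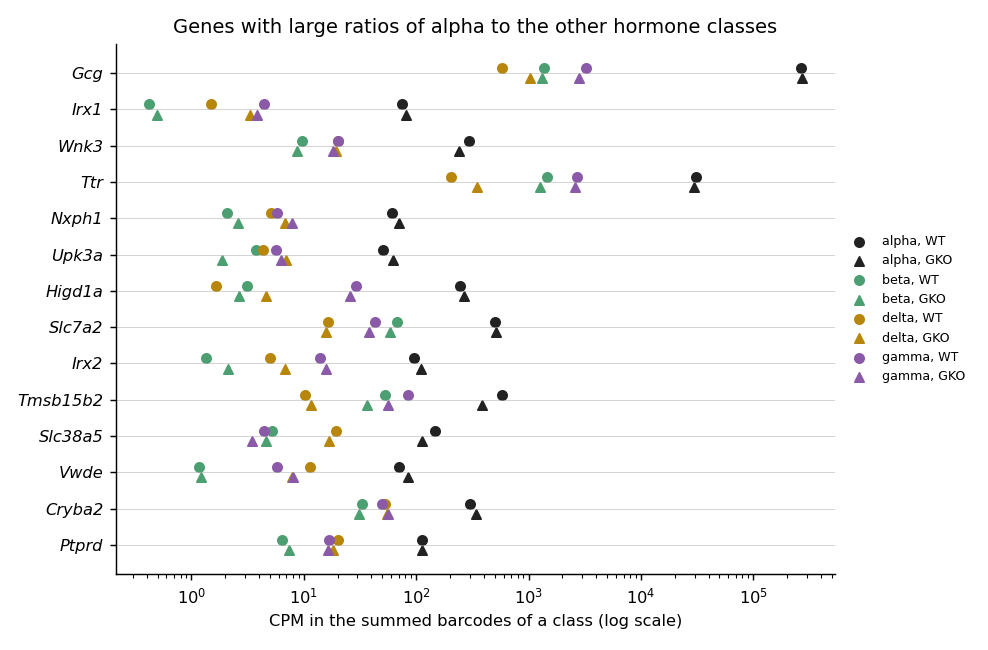
CPM (x axis, log scale) of 14 of the 15 genes with the largest ratio of α to the highest of β, δ and γ barcodes, for WT (circles) and GKO (triangles). In every row both α symbols lie to the right of the other classes, by 81.1-fold and 97.9-fold for Gcg down to 5.60-fold and 6.25-fold for Ptprd.

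At the other end were genes lower in α than in each other hormone class. Hadh, the mitochondrial enzyme of fatty acid oxidation that is also known as a brake on insulin release, was at 19.2 CPM in WT and 19.3 CPM in GKO members, against at least 87.0 CPM in each other class. Scg2, a granin of dense-core granules, was at 826 and 739 CPM against at least 1631 CPM. Fkbp11 (25.8 and 26.9 CPM), Sec11c of the signal peptidase (108 and 111 CPM), Dnajb9 (93.6 and 88.8 CPM) and Pdia6 (231 and 241 CPM) were likewise below every other hormone class in both libraries. All 6 genes were chosen after their values were seen, and the last 4 are known from folding and export of secreted proteins.

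GKO and WT members had close profiles. CPM were computed from UMIs summed over the members of each library, and a value is given as the log2 ratio of GKO to WT with the exact Poisson 95% interval of 2 sums. Reads came from transcript ends, so CPM are not divided by length and levels of different genes are not compared. Of 16755 genes with a UMI in WT and 17144 in GKO, 5344 had at least 20 CPM in 1 library and 100 UMIs in both together. Their median ratio was 0.04 (SD 0.25 across genes), 90% lay between -0.28 and 0.31, and 61.5% were above 0. A ratio of at least 1.5-fold was found for 27 genes higher in GKO (0.505% of those compared) and 63 genes lower (1.18%). Gcg, with a ratio of 0.05, was not among them, but its level was bounded by the rule. A gene under 20 CPM in 1 library entered through the other alone, so its place among the 27 or 63 depended on the difference.

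**Figure D3:**
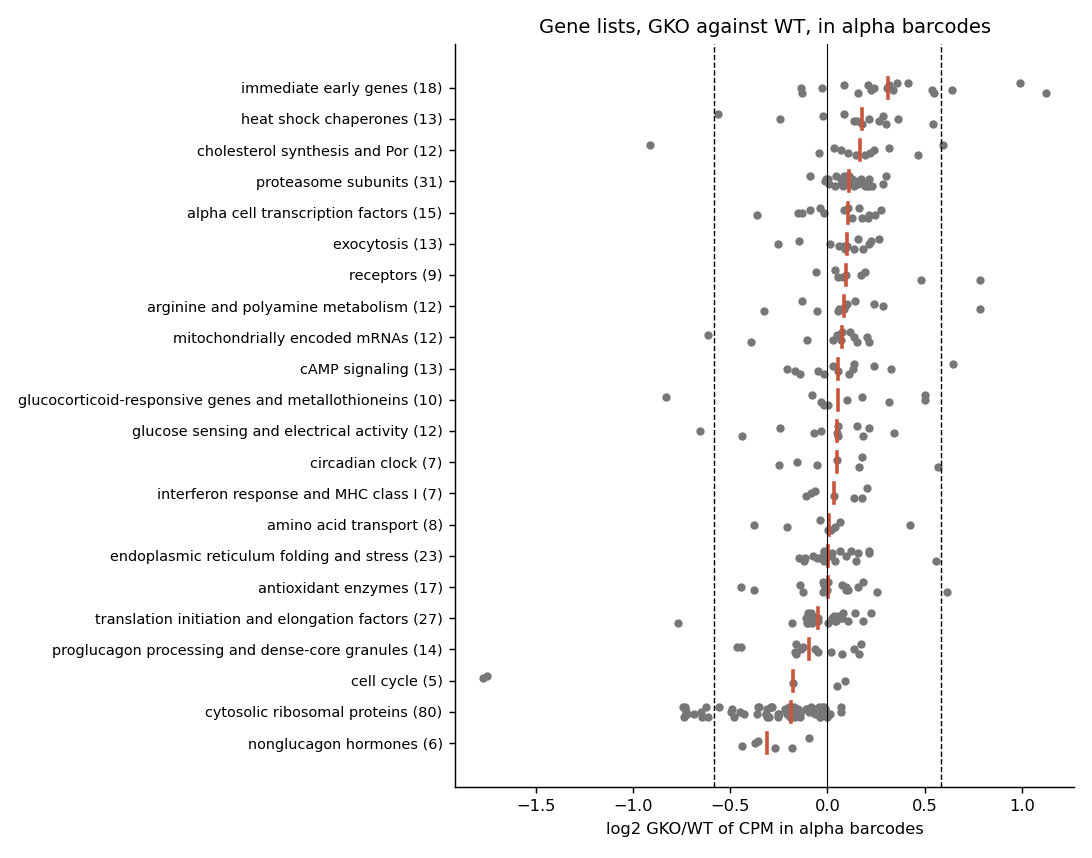
Log2 ratio of GKO to WT CPM in α barcodes (x axis) for each gene (gray points) of the gene lists (rows, with the number of genes compared), with list medians as red bars and dashed lines at 1.5-fold. Immediate early genes have the highest median, 0.31, and other hormones the lowest, -0.31.

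Transcripts for making and releasing glucagon were compared by list. With 0.505% of all genes past 1.5-fold higher and 1.18% lower, a count of 0 in a list of this size is near the background and no result about the list. Of 15 factors of the α cell program that were compared, 0 were past 1.5-fold in either direction and the list median was 0.11. Isl1 was at 192 and 223 CPM (0.21, interval 0.14 to 0.29), Pax6 at 184 and 166 CPM (-0.15, -0.23 to -0.07) and Foxa2 at 73.2 and 66.8 CPM (-0.13). Etv1 had the lowest ratio, with 491 and 383 CPM (-0.36, -0.41 to -0.31). Of 14 genes for prohormone processing and granules, 0 passed 1.5-fold, with a median of -0.09. Pcsk2 was at 4756 and 4237 CPM (-0.17, -0.18 to -0.15) and its chaperone Scg5 at 1480 and 1626 CPM (0.14, 0.11 to 0.16). The granins, cargo of secretory granules, were abundant, with Pcsk1n at 5834 and 6524 CPM and Chga at 5073 and 5339 CPM. Pcsk1, the enzyme of GLP-1 release, had 26 UMIs in each library and was at 2.19 and 1.63 CPM. Exocytosis genes gave 0 of 13 past 1.5-fold and a median of 0.10.

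Of the receptors, 9 of 24 were high enough to compare, 1 was past 1.5-fold and the list median was 0.09. That gene was Avpr1b, the vasopressin receptor known to raise glucagon release. It stood at 12.2 CPM in WT against 21.1 CPM in GKO (0.79, 0.50 to 1.08), with a UMI in 12.2% and 19.3% of members. GKO was the higher library, through which alone Avpr1b passed the 20 CPM filter, so that its place among the genes compared depended on this difference. The ratio was 0.54 to 0.88 over 16 other settings, past 1.5-fold in 15. Oxtr, for oxytocin, was at 83.2 and 88.8 CPM, and Gria2, a glutamate receptor subunit, at 391 and 401 CPM. Gipr, for the incretin GIP, was at 22.9 and 25.8 CPM, with a UMI in 23.8% and 25.9% of members against 0.67% and 0.45% of endothelial barcodes.

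The ghrelin receptor was at background in members. Ghsr had 5 UMIs in 4 WT members (0.44%, interval 0.12 to 1.12) and 8 UMIs in 7 GKO members (0.56%, 0.22 to 1.14), while 0.84% and 0% of endothelial barcodes had one. In δ barcodes, with median depths of 11087.5 and 10148 UMIs, 24.3% and 27.2% had a Ghsr UMI. The receptors for GLP-1 and glucagon were equally sparse, with Glp1r at 1 and 2 UMIs and Gcgr at 4 and 0 UMIs. Of the somatostatin receptors, Sstr3 was at 53.9 and 51.7 CPM and Sstr2 at 13.8 and 17.1 CPM. Sstr2 had a UMI in 14.4% and 17.0% of α barcodes and in 1.10% and 1.24% of δ barcodes, whereas Sstr3 was of like share in both, at 47.8% and 44.8% of α and 51.4% and 48.9% of δ barcodes.

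Channels and second messengers held single genes past the fold. Kcnk3, the background potassium channel TASK-1, was at 138 CPM in WT against 87.9 CPM in GKO (-0.65, -0.76 to -0.55), and was the only one of 12 genes of glucose sensing and electrical activity past 1.5-fold. It had a UMI in 74.8% and 61.2% of members, and its ratios in δ and γ barcodes were -0.53 and -0.36. Pde10a, which degrades cAMP and cGMP, was at 101 and 158 CPM (0.65, 0.55 to 0.75) and was 1 of 13 cAMP genes past the fold. Its ratios in β, δ and γ barcodes were 0.89, 0.44 and 0.25. The cAMP list had a median of 0.05, with Gnas, the stimulatory G protein, at 4255 and 5025 CPM (0.24, 0.22 to 0.26).

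Arg1, which splits arginine to ornithine and urea, was at 57.2 CPM in WT against 98.4 CPM in GKO (0.78, 0.65 to 0.91). A UMI was found in 39.7% of WT and 56.9% of GKO members, and after thinning to 2000 UMIs in 11.0% and 18.3%. In endothelial barcodes the shares were 1.85% and 0.67% without thinning. GKO was also higher in β, δ and γ barcodes, with ratios of 0.64, 0.67 and 0.83, and δ barcodes had higher levels, 361 and 573 CPM. Arg1 was the 1 gene of 12 for arginine and polyamine metabolism past 1.5-fold, and the list median was 0.09. Odc1, which turns ornithine to putrescine, was at 27.9 and 33.0 CPM (0.24, 0.04 to 0.44). None of 8 amino acid transporters was past 1.5-fold, with ratios from -0.38 for Slc38a5 to 0.43 for Slc7a8.

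Immediate early genes had the highest median of the lists, 0.31, against 0.04 for all genes compared. Of 18 compared, 15 were above 0, 3 were at least 1.5-fold higher and 0 lower. Npas4, an activity-dependent factor, was at 29.8 CPM in WT against 59.3 CPM in GKO (0.99, 0.81 to 1.17), Nr4a1 at 19.2 and 42.0 CPM (1.13, 0.91 to 1.35) and Nr4a2 at 26.6 and 41.4 CPM (0.64, 0.44 to 0.84). Nr4a1 passed the 20 CPM filter through GKO alone, so its place in the count of 3 depended on this difference. Fos was at 810 and 1037 CPM (0.36, 0.32 to 0.39) and Egr1 at 471 and 586 CPM (0.32, 0.27 to 0.36). Dusp1 and Jund went the other way, at -0.14 and -0.13. In the other classes the same list had medians of 0.08 in β, -0.15 in δ, 0.07 in γ and -0.02 in endothelial barcodes, over genes with at least 5 CPM in both libraries. In δ barcodes 14 of 17 of its genes were below 0. The ratio of Npas4 was -0.01 in δ and 0.70 in γ barcodes, and in β barcodes it was under 5 CPM in both libraries. Whether these differed from α was not tested.

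Npas4 and Nr4a1 differed in where else they were found. Npas4 was at 0.75 and 0.53 CPM in endothelial barcodes and had a UMI in 19.3% and 30.0% of members, or 6.70% and 9.48% after thinning to 2000 UMIs. Nr4a1 was lower in members than in endothelial barcodes in both libraries, at 397 and 292 CPM there, and Fos and Egr1 were lower than there as well, at 1931 and 1806 CPM and 1584 and 1376 CPM. The part of free RNA in these values was not tested. The ratio of Nr4a1 was 0.88 to 1.52 and that of Npas4 0.91 to 1.14 over 16 other settings.

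Heat shock chaperones had a median of 0.18 over 13 genes with 0 past 1.5-fold. Hspa1a was at 1180 and 1452 CPM (0.30, 0.27 to 0.33), while Hspb1 was at 274 and 186 CPM (-0.56, -0.63 to -0.49). With barcodes thinned to equal depth, Hspb1 had a mean of 1.25 UMIs in WT and 0.92 in GKO members. Without the members set apart below for marker UMIs of other cells, these means were 0.99 and 0.85. The WT level of Hspb1 thus rested in part on those members, which its counting interval does not cover. In δ barcodes the same list had a median of -0.17. Endoplasmic reticulum genes had a median of 0.00 over 23 genes with 0 past 1.5-fold. Within them Hspa5 was at 635 and 645 CPM (0.02, -0.02 to 0.06), and Atf4, the factor of the integrated stress response, was highest, at 94.1 and 138 CPM (0.56, 0.45 to 0.66). Of 31 proteasome subunits 28 were above 0, against 61.5% of all genes compared, with a median of 0.11 and 0 past 1.5-fold. In β, δ, γ and endothelial barcodes 29, 28, 28 and 24 of the 31 were above 0. The medians there were 0.16, 0.07, 0.13 and 0.08.

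Single genes of other lists were past the fold. Por, which passes electrons to the cytochromes P450 and to sterol synthesis, was at 111 and 58.8 CPM (-0.91, -1.03 to -0.79). Its ratios were -0.51 in β, -0.18 in δ, -0.60 in γ and -0.12 in endothelial barcodes. Of the 12 sterol synthesis genes compared, Por included, 10 were above 0 with a median of 0.17. Hmgcs1, an early enzyme of that pathway, was at 18.7 and 28.1 CPM (0.59, 0.36 to 0.83) but stayed past 1.5-fold in 7 of 16 other settings. It passed the filter through GKO alone. Fkbp5, a target of the glucocorticoid receptor, was at 99.7 and 56.0 CPM (-0.83, -0.96 to -0.71), and it was lower in GKO in β (-1.07), δ (-0.88), γ (-0.71) and endothelial (-1.13) barcodes also. Zbtb16, another such target that was under the filter, had 151 and 27 UMIs (-2.91, -3.56 to -2.32). Klf9 and Errfi1 of the same list were both at 0.50, and the list of 10 had a median of 0.05. Txnip, a redox regulator that responds to glucose, was at 293 and 448 CPM (0.61, 0.56 to 0.67) and past 1.5-fold in 11 of 16 other settings. Its ratios were 0.48 in β, 0.53 in δ, 0.74 in γ and 0.07 in endothelial barcodes. The clock, interferon and antioxidant lists had medians of 0.05, 0.04 and 0.00. Eif4ebp1, which holds back translation initiation, was at 21.9 and 12.8 CPM (-0.77) and was the 1 gene past 1.5-fold of 27 translation factors, whose median was -0.05. Eif4ebp1 passed the filter through WT alone.

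Ribosomal protein transcripts were lower in GKO. They made 12.5% of α UMIs in WT and 10.8% in GKO, and 77 of 80 genes were below 0, with a median of -0.19 and 11 past 1.5-fold. Among the 11, Rps28 was at 1062 and 634 CPM (-0.74, -0.78 to -0.71) and Rpl37a at 3216 and 1936 CPM (-0.73, -0.75 to -0.71). Low ratios were found in short transcripts at large. Of 80 genes with transcripts of up to 600 nucleotides, 74 were below 0 and 13 at least 1.5-fold lower, and the 63 of them that encode no ribosomal protein had a median of -0.23 with 57 below 0. The median was 0.05 over 4322 such genes of more than 1500 nucleotides. mt-Nd3, a short mitochondrial mRNA, was at 482 and 315 CPM (-0.61, -0.67 to -0.56), whereas the median of 12 mitochondrial mRNAs was 0.07. The part of transcript length in these ratios was not tested. Rps28 was at -0.59 in β, -0.60 in δ, -0.66 in γ and -0.79 in endothelial barcodes. The whole list, however, had medians of -0.05, -0.04 and -0.07 in β, δ and γ barcodes and of -0.22 in endothelial barcodes.

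The 90 genes past 1.5-fold fell into 3 patterns, set after their values were seen. In 25 genes (11 higher and 14 lower), the 1% of members with most UMIs held at least 50% of all UMIs of the gene in a library. In a further 49 (10 higher and 39 lower), the α level was under 2 times that of endothelial barcodes in at least 1 library. The remaining 16, 6 higher and 10 lower, were spread over members and above the endothelial level. Since the limit held for both libraries, a gene lower in GKO could miss it through its GKO level alone. Por was at 2.94 times the endothelial level in WT and 1.70 times in GKO. Endothelial barcodes may also hold transcripts of their own for such genes, so the second pattern does not mark free RNA.

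The first pattern held the most extreme ratios. Jchain, the joining chain of plasma cells, was at 1.60 and 124 CPM (6.27, 5.62 to 7.01), with 98.0% of its GKO UMIs in 1 barcode. Cartpt, a neuropeptide, was at 0.68 and 64.2 CPM (6.57, 5.59 to 7.79), with 98.4% of GKO UMIs in 1 barcode. Jchain and Cartpt passed the filter through GKO alone. The collagens and matrix genes Col1a2, Col3a1, Dcn and Bgn, the pericyte gene Rgs5 and the class II genes H2-Aa and H2-Eb1 were higher in GKO in this way, but not in every setting. Of these, Col3a1, Bgn and Rgs5 also passed the filter through GKO alone. Without called doublets Dcn was at -2.53, Bgn at -1.80 and H2-Eb1 at -0.62, and with Gcg of at least 20% Dcn was at -0.57 and Bgn at -0.22. Cxcl13, with 89.1% of WT UMIs in 1 barcode, was lower, as were the proliferation genes Cenpf and Ube2c. Cxcl13, Cenpf and Ube2c passed the filter through WT alone. Spp1, listed as a ductal marker, was at 78.8 and 21.1 CPM (-1.90, -2.09 to -1.72), with 33.0% of its WT UMIs in 1 barcode, and made up most of the 84.4 and 22.0 CPM of the 4 ductal markers. It was not particular to ductal cells here, at 255 and 378 CPM in γ and 59.1 and 47.5 CPM in δ barcodes.

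Of the markers of other cells, those of stellate cells were higher in GKO members. The 7 stellate markers summed to 122 and 193 CPM (0.66, 0.57 to 0.75). The 7 leukocyte markers summed to 303 and 340 CPM (0.16, 0.10 to 0.22) and the 6 endothelial markers to 56.8 and 60.2 CPM (0.08, -0.06 to 0.23). None was at 0 in both libraries. At least 10 UMIs of these 3 lists were found in 22 WT members (2.41%) and 42 GKO members (3.34%), of which 15 and 27 had a Gcg share under 20%. These barcodes held 78.4% and 81.5% of those marker UMIs and had a median of 18646.5 and 20431 UMIs. Without them 16 genes instead of 27 were at least 1.5-fold higher in GKO. Their part in the single ratios was not tested.

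The second pattern held the 11 ribosomal protein genes given above and, among others, digestive enzymes of acinar cells, of which some (Cpa1, Pnlip, Cela2a) belonged to the first. The 7 acinar markers summed to 503 CPM in WT and 235 CPM in GKO members (-1.10, -1.16 to -1.04) and to 1423 and 330 CPM in endothelial barcodes (-2.11). Ctrb1, a chymotrypsinogen, was at 154 and 73.8 CPM (-1.06, -1.17 to -0.96), below its endothelial level in both libraries, with 35.5% of WT UMIs in 1 barcode.

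The third pattern held genes whose UMIs were not concentrated in few members, with a UMI in 12.2 to 80.9% of WT members. Higher in GKO were Npas4, Arg1, Avpr1b and Pde10a as given, and Sik2 and Fam13a. Sik2, a kinase held in check by cAMP signals, was at 30.3 and 50.1 CPM (0.73, 0.54 to 0.91). Its ratios were 0.20 in δ and 0.85 in γ barcodes. Fam13a was at 14.3 and 25.4 CPM (0.83, 0.57 to 1.10) and passed the filter through GKO alone. Its ratios were 0.57 in δ and 0.77 in γ barcodes. Lower in GKO were Syndig1l, Fxyd3, Kcnip3, Basp1, Rab26os, AF529169, Mdm1, Smim22, Kcnk3 and Cacng4. Of these, Kcnip3 and AF529169 passed the filter through WT alone.

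Some of these were lower in the other classes too. Basp1, a membrane protein of neurons and neuroendocrine cells, was at 199 and 117 CPM (-0.77, -0.85 to -0.68), and its ratios were -0.61 in β, -0.84 in δ and -0.74 in γ barcodes. Mdm1 had ratios of -0.82 in β, -0.52 in δ and -0.73 in γ barcodes, and Smim22 of -0.55, -0.56 and -0.47. Kcnip3, a calcium-binding partner of potassium channels that also represses transcription, was at 23.9 and 13.9 CPM (-0.78, -1.04 to -0.52). Its ratio in γ barcodes was -0.60. Syndig1l was at 39.1 and 21.3 CPM (-0.88, -1.08 to -0.67), with ratios of -0.07 in β, -0.35 in δ and -0.15 in γ barcodes. Cacng4, a subunit that regulates AMPA receptors and calcium channels, was at 33.7 and 22.0 CPM (-0.61, -0.83 to -0.40), with -0.15 in γ barcodes. Whether a ratio differed between classes was not tested.

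**Figure D4:**
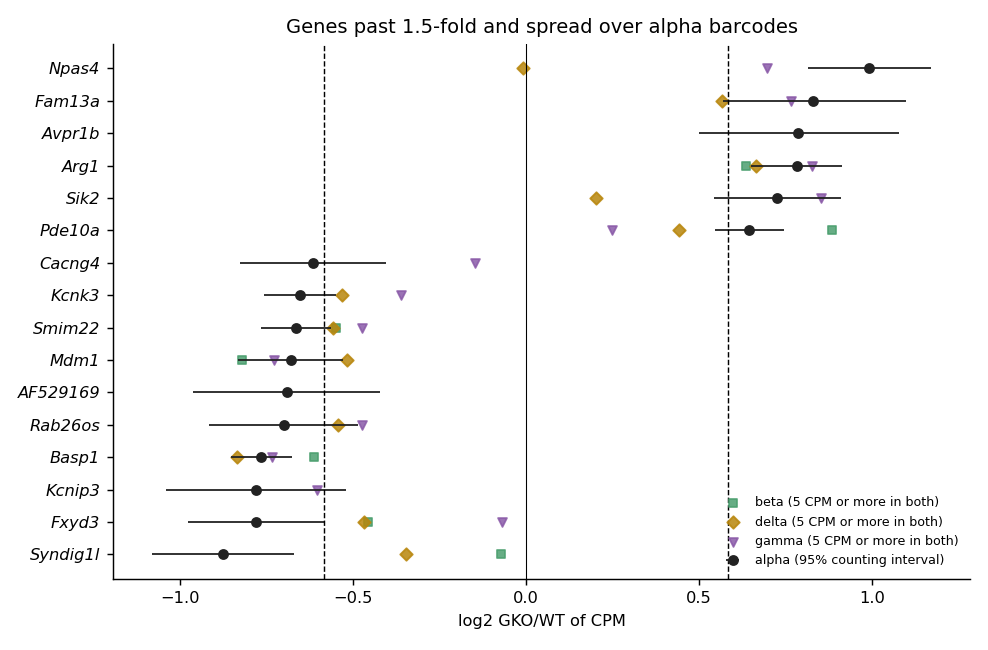
Log2 ratio of GKO to WT CPM (x axis) of the 16 genes past 1.5-fold and spread over members; black points with 95% counting intervals are α barcodes, the colored symbols are β, δ and γ barcodes with at least 5 CPM in both libraries, and dashed lines mark 1.5-fold. Arg1 lies right of 0 in all 4 classes and Basp1 left of 0, while Npas4 is near 0 in δ, at -0.01.

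Hormones other than glucagon were lower in GKO members without passing the fold. All 6 compared were below 0, from -0.44 for Ins1 to -0.09 for Pyy, with a median of -0.31. In endothelial barcodes all 6 were below 0 as well, with a median of -0.97. The part of free RNA in the α values was not tested.

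Few members carried proliferation transcripts. At least 5 UMIs of 8 proliferation genes were found in 12 of 912 WT members (1.32%, 0.68 to 2.29) and 10 of 1257 GKO members (0.80%, 0.38 to 1.46). In β barcodes, which are deeper, the counts were 67 of 2027 and 17 of 768. The intervals of the α shares overlapped. Top2a, which untangles DNA in dividing cells, had a UMI in 1.97% and 1.51% of members, and in 1.21% and 0.48% after thinning to 2000 UMIs, against 3.19% and 2.23% of endothelial barcodes without thinning.

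The spread of each gene among members was measured next. The Fano factor, the variance over the mean of a gene across barcodes thinned to 5000 UMIs, had a median of 1.04 in WT and 1.03 in GKO over 4907 genes, and 94 genes (1.92%) exceeded 2 in both. The 15 largest were Sst, Pyy, Gcg, Ppy, Ttr, Cd74, Malat1, Apoe, Dcn, Iapp, Gsn, Sparc, Lyz2, H2-Ab1 and H2-Eb1. The spread of Gcg, Sst and Ppy was bounded by the rule that chose the members. Of the 15, Cd74, Apoe, Dcn, Gsn, Sparc, Lyz2, H2-Ab1 and H2-Eb1 are known from leukocytes or stromal cells. When the barcodes with at least 10 marker UMIs of other cells were left out, Pyy kept a Fano factor of 126 and 147 and Gcg of 83.9 and 85.0. Stmn1 was then at 11.9 and 10.4, Pcsk1n at 6.16 and 6.58, Gnas at 5.53 and 6.39 and mt-Co3 at 5.49 and 5.88. The top 10% of barcodes held 100% of Stmn1 UMIs in both libraries, but 19.1% and 19.0% of those of Pcsk1n. The shares were 20.5% and 20.2% for Gnas and 16.5% and 16.4% for mt-Co3. The order by Fano factor is thus not an order by evenness. Genes of stress were mixed with these in the order, with Hspa1b at 6.27 and 6.14, Jun at 4.98 and 5.21 and Fos at 4.77 and 4.87. Upk3a, a urothelial membrane protein, was at 4.77 and 5.06. Upk3a had a UMI in 11.5% and 15.6% of these thinned barcodes, and the top 10% of barcodes held 94.5% and 85.0% of its UMIs.

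Barcodes were then grouped by Gcg share, which the rule had used only as a floor. The bands of 10 to 20, 20 to 30, 30 to 40 and at least 40% held 167, 489, 243 and 13 WT members and 222, 620, 389 and 26 GKO members. Median depth went from 9640 to 13827 UMIs in WT and from 9548 to 13124 UMIs in GKO between the 10 to 20% and the 30 to 40% band, and median mitochondrial share from 4.89 to 3.81% and from 5.39 to 4.07%. Levels here are CPM of the UMIs other than Gcg, so a higher Gcg share cannot itself lower them. Depth and mitochondrial share moved with the bands, and their part in the values was not tested.

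Between the lowest and the highest band, the largest differences shared by both libraries were lower Sparc, H2-Ab1, Apoe, Sst, Lyz2 and Plpp3 and higher Dapl1, Col27a1, Spsb2, Crem, Gpx3 and Asns. Apoe was at 786 CPM in the lowest WT band and 38.9 in the highest, and at 809 and 31.5 in GKO. With 13 WT barcodes the highest band is thin, and in the 30 to 40% band Apoe was at 37.8 and 58.6. Since the low band held most members with UMIs of other cells' markers, the rest of the comparison leaves out the 22 and 42 barcodes with at least 10 such UMIs and sets 30 to 40% against 10 to 20%, a choice made after the values were seen. Of 3147 genes, 35 (1.11%) were then at least 1.5-fold lower and 14 (0.445%) at least 1.5-fold higher in both libraries.

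α genes were among those higher in Gcg-rich barcodes. Ttr was at 31091 CPM in the low and 50904 in the 30 to 40% WT band (log2 ratio 0.71, interval 0.70 to 0.73) and at 32215 and 51143 in GKO (0.67, 0.65 to 0.68). Gpx3, a secreted selenoprotein that reduces peroxides, was at 1774 and 3392 in WT (0.94) and 1270 and 2541 in GKO (1.00). Dapl1 was at 72.9 and 236 in WT (1.70, 1.39 to 2.02) and 22.5 and 153 in GKO (2.76, 2.29 to 3.27). Oat, the mitochondrial aminotransferase that uses ornithine, was at 38.3 and 76.3 in WT and 31.8 and 74.5 in GKO. Slc38a5 and Cryba2, α-enriched genes above, were higher as well, by 0.78 and 0.67 in WT and 0.74 and 0.59 in GKO. Pcsk2 was at 0.06 and 0.01, so its level did not follow the Gcg share.

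Immediate early and heat shock genes ran the opposite way. The 15 immediate early genes had medians of -0.89 in WT and -0.49 in GKO, with 5 at least 1.5-fold lower in both, and the 12 chaperones had medians of -0.54 and -0.44 with 3 lower, against -0.07 and -0.02 for all genes. Egr1 was at 871, 679, 398 and 210 CPM from the lowest to the highest WT band and at 980, 844, 577 and 446 in GKO. Junb was at 234 and 90.4 in the low and the 30 to 40% WT band (-1.37) and at 275 and 165 in GKO (-0.74). Within each band Egr1 and Junb were higher in GKO than in WT. Sox4, a factor of endocrine progenitors, was at 222 and 78.0 in WT (-1.51) and 258 and 115 in GKO (-1.16). Sst, held under 5% by the rule, was at 7072 and 459 in WT and 7298 and 340 in GKO. Stmn1, a tubulin-binding protein of dividing cells, was at 100 and 16.6 in WT and 102 and 9.03 in GKO. It rests on few barcodes, as the 1% of all members with most Stmn1 UMIs held 84.3% and 82.5% of them. Over all members, Stmn1 in the 10 to 20% and 20 to 30% bands was at 88.0 and 118 in WT and 88.8 and 67.7 in GKO.

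**Figure D5:**
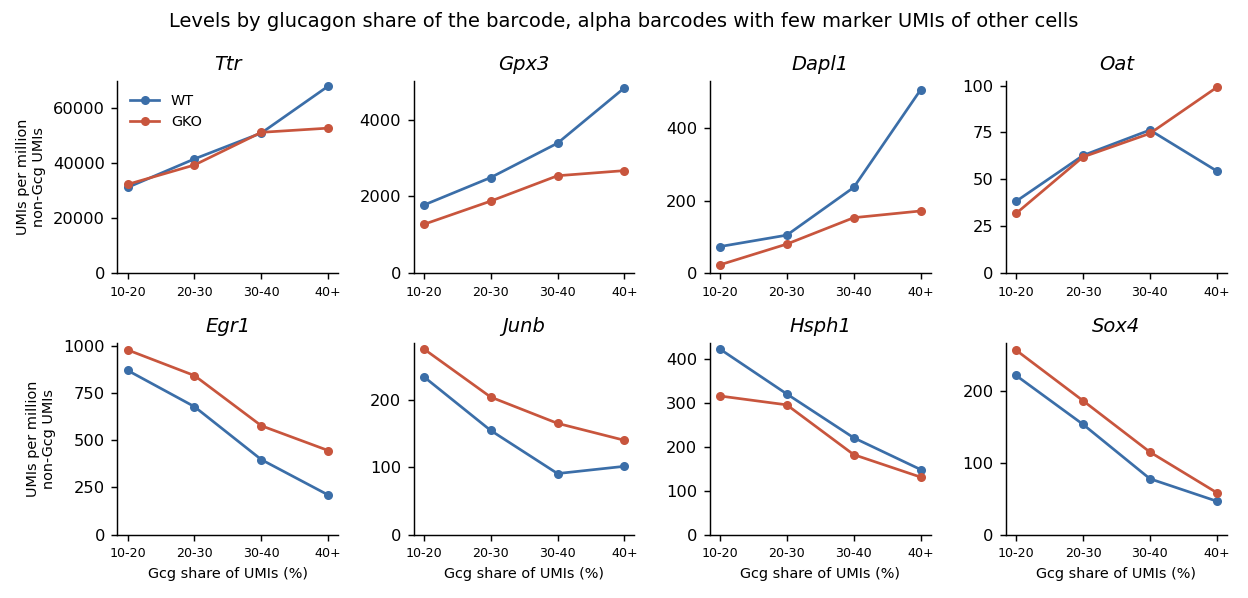
Level in CPM of non-Gcg UMIs (y axis, from 0) by band of Gcg share (x axis, percent) for 8 genes in WT (blue) and GKO (red) α barcodes, without the 22 and 42 barcodes that held at least 10 marker UMIs of other cells; the WT band of at least 40% holds 13 barcodes. Ttr, Gpx3, Dapl1 and Oat are higher at 30 to 40% than at 10 to 20% in both libraries, and Egr1, Junb, Hsph1 and Sox4 lower.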

How the data were processed

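Mapping and UMI counting were done by the authors in Cell Ranger 5.0.1, and per the labels the genome build was mm10. The deposited values are these raw counts for barcodes called as cells, and no removal of free RNA or doublets is stated for them. The WT and GKO libraries held 158067110 and 103511757 UMIs in 7792 and 7289 barcodes.

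Barcodes and hormone classes were taken by the shares given above, with β barcodes at 25% or more insulin and δ and γ barcodes at 10% or more Sst or Ppy, each with the other hormones under 5%. Endothelial barcodes, used as a measure of free RNA, had UMIs of at least 3 of 6 endothelial markers and each hormone under 10%. Doublets were kept in the main analysis and called for an alternative by how many simulated doublets lay near a barcode in expression space, at the top 7.6% of each library. UMIs were summed per class and library with Python 3.11.15, numpy 2.4.6, scipy 1.17.1 and pandas 2.3.3. Ratios and intervals were tested on simulated Poisson sums. That test could not check them against the uneven spread of UMIs over barcodes seen here. Transcript lengths were the longest of GENCODE vM21 basic, matched for 5340 of 5344 genes, and promoters were from RefSeq, where 10 of the 15 α-enriched genes matched.

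Genes were named by rule: α markers and list members that were past 1.5-fold or among the 3 highest of their list, the 15 highest genes, the 15 most enriched, the 12 largest differences in each direction, the 15 largest Fano factors and the 6 largest band differences each way, plus list members whose role is described. Some genes that this rule names are not reported here. The members and gene lists were chosen with earlier results of these data known. Alternatives changed the hormone, gene and mitochondrial limits, doublets, scaling (including TMM of edgeR 4.0.16), thinning to 5000 UMIs, free RNA, the filter and the fold.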

Additional observations from a re-analysis of the deposited data

How the results depend on the processing

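With 1 library per genotype there is no spread between animals, no fit without a library, and no counting interval that covers the preparation. No paired analysis was possible because each genotype was 1 pooled library. Depth limits receptors and factors under about 20 CPM, and free RNA limits hormones and digestive enzymes.

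GKO kept the larger share of α barcodes in every setting tried. All were shares of kept barcodes, and the part of the β count in them was not tested. The WT and GKO shares were 10.5% and 16.3% with Gcg of at least 20%, 11.4% and 18.1% with other hormones under 2%, 14.2% and 21.5% with them under 10%, 9.81% and 13.7% with at most 5% mitochondrial UMIs, and 9.70% and 16.9% with other hormones under 1%. The last setting, the removal of barcodes with marker UMIs of other cells and its use for Gcg bands and Fano factors were chosen after seeing the data.

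The 27 genes higher in GKO became 17 with Gcg of at least 5%, 15 with other hormones under 10%, 43 with totals without hormone genes, 46 with barcodes thinned to 5000 UMIs and 16 without barcodes that held marker UMIs of other cells. The counts higher and lower were 4 and 21 at a minimum of 100 CPM, 1365 and 1310 with 1 UMI in each library as the filter, and 6 and 22 at 2-fold. TMM scaling moved the median of all genes from 0.04 to 0.00.

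The Gcg ratio was 0.067 with Gcg of at least 5%, 0.040 and 0.054 with other hormones under 2% and 10%, 0.050 and 0.086 with at most 20% and 5% mitochondrial UMIs, 0.058 without called doublets, 0.056 and 0.022 with totals without hormone genes and without ribosomal protein and mitochondrial genes, 0.0079 with TMM, 0.053 with free RNA subtracted and 0.053 without barcodes with other cells' markers.

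Signs turned in genes that rest on few barcodes. Without called doublets the ratio was -2.53 for Dcn, -1.80 for Bgn, -0.62 for H2-Eb1, -0.062 for S100a6 and 0.13 for Ctla2a. With Gcg of at least 20% it was -0.57 for Dcn, -0.22 for Bgn and 0.059 for Cxcl13, which was at 0.27 without barcodes with other cells' markers. Jchain was at -0.53 with Gcg of at least 5%. The cause was not tested. At 2000 UMIs, 9 of the 15 largest Fano factors were shared with 5000.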
